A study of Mus musculus with 26 samples.

Results

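The cells described here are skin fibroblasts whose RNA held Coch, Lrrc15, Megf6 or Mmp11, and they were chosen by their UMI counts of those 4 genes. A UMI is a molecular tag that lets each captured RNA molecule be counted a single time. A cell was a member if it held 3 or more UMIs of the 4 genes together, at least 1 UMI of Col1a1, the main fibrillar collagen of fibroblasts, and 0 UMIs of Ptprc, the pan-leukocyte antigen. Cells were kept if they had 500 or more genes and at most 10% mitochondrial UMIs. Of 23153 kept cells, 2551 were members. Tube 1 held 1904 members among 18172 cells with Col1a1 and without Ptprc, which is 10.5% (95% exact interval 10.0 to 10.9). Tube 2 held 647 among 4728, which is 13.7% (12.7 to 14.7). The comparison cells were the other 16268 and 4081 cells with Col1a1 and without Ptprc in the same tube. The working label of these cells also names elastin (Eln) and its partner Mfap4, which the choice of cells did not use.

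The animals were Prrx-Cre mice, in which fibroblasts that have expressed the limb bud and mesenchyme transcription factor Prrx1 (PPF) are sorted from those that have not (PNF). The single-cell series has 2 tubes labelled as fibroblasts of postnatal ventral skin. Per the study design, they hold hashtagged PPF and PNF cells of caudal and of ventral skin, with and without wounding, and the files used here do not tie a hashtag to a condition. The bulk series has 24 libraries of sorted ventral skin fibroblasts in 8 groups, with PNF and PPF each at E16.5, E18.5, P1 and P30. PNF had 2, 4, 4 and 2 libraries at these ages and PPF had 2, 2, 2 and 6. All groups carry the same strain label. Its exact transgenes and the gate of the sort are not given in the sources used here, and nothing says whether libraries of a group came from separate animals.

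In background, dermal fibroblasts build the collagen, elastic fibre and proteoglycan network of skin, and they differ by depth, body site and distance from the hair follicle. Lrrc15 encodes a leucine-rich repeat membrane protein that TGF-beta induces and that marks matrix-producing fibroblasts of wounds, joints and tumours. Coch encodes cochlin, a secreted matrix protein best known from the inner ear, Megf6 encodes a protein of many EGF-like domains, and Mmp11 encodes stromelysin-3, a metalloproteinase made by stromal cells. Elastin and Mfap4 belong to the elastic fibre, which gives skin its recoil.

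The genes lie, on GRCm38 in GENCODE vM21, at chromosome 12, 51593341 to 51605771 (Coch), 16, 30269302 to 30283256 (Lrrc15), 4, 154170730 to 154275713 (Megf6), and 10, 75923222 to 75936496 (Mmp11). Promoter sequence is shown for Coch and Lrrc15, the pair of genes that led the largest numbers of members, because transcripts of the transcription factors Runx1 and Runx2 were higher in the members. Windows from 250 bases before to 50 bases after each gene's start were taken from RefSeq (GRCm38.p6), and all 4 rule genes were matched. On both strands, a RUNX motif (TGTGGT) and an AP-1 motif (TGANTCA) were searched. The 250 bases before the start of Coch, chr12:51593091-51593340 on the plus strand, hold 1 RUNX match on the minus strand, 205 bases before the start. It is capitalised in the first sequence below as the plus strand reads it. The 250 bases before the start of Lrrc15, chr16:30283255-30283504 on the minus strand, hold 1 AP-1 match 53 bases before the start, capitalised in the second.
Coch: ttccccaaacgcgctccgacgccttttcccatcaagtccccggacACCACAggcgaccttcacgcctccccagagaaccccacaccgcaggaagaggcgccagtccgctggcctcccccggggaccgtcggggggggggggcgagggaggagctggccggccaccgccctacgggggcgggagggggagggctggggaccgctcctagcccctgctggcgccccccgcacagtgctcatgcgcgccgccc
Lrrc15: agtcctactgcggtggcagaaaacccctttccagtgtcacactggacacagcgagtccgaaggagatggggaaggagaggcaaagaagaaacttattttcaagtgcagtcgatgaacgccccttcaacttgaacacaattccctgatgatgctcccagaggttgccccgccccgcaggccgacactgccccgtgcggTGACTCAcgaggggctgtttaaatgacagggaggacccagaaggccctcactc
The RUNX letters occur in 16.8% of 32851 promoters of this length and the AP-1 letters in 7.81%, so neither match is rare. The window of Lrrc15 held 0 RUNX matches and that of Coch 0 AP-1 matches. Neither motif was found in the windows of Megf6 and Mmp11. A match is a run of letters and not a shown binding site.

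The members were deeper cells than the rest, with a median of 3979.5 against 2630 UMIs in tube 1 and 7381 against 4146 in tube 2. A threshold on UMIs favours deep cells. With every cell thinned to 2000 UMIs and shallower cells left out, the share of members was 5.83% in tube 1 and 4.86% in tube 2, so the order of the tubes turned at equal depth. The tubes shared 42 of all barcodes, 32 of kept cells and 1 of members. The doublet caller Scrublet marked 0 of 18374 and 1 of 4779 kept cells. Whether it could find doublets here was not tested. Doublets were not removed by it and may remain.

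Lrrc15 was the most widespread of the 4 genes, and Coch the most concentrated. Levels are CPM, the usual counts scaled to a common total, with UMIs summed over all cells of a set, with exact Poisson limits that, like all intervals and floors here, cover counting error only. Lrrc15 stood at 751 CPM in members and 66.1 in other cells in tube 1, and at 406 and 31.3 in tube 2. It was found in 85.0% of members in tube 1 and in 75.6% in tube 2. Coch stood at 319.7 CPM in members and 8.08 in other cells in tube 1, and at 476 and 13.5 in tube 2. Only 22.2% and 38.5% of members held a Coch UMI, and single cells reached 79 and 161 of them. No cell outside the members could hold more than 2 UMIs of these genes. Megf6 stood at 127 against 10.5 CPM in tube 1 and 68.1 against 3.85 in tube 2. Mmp11 stood at 175 against 25.1 CPM and at 144 against 34.0. These gaps are what the choice of cells used, so they describe the members and are not a finding. In the 123 and 50 kept cells with a Ptprc UMI, Lrrc15 was found in 9.76% and 16.0%, and Coch in 4.88% and 8%. Eln was found in 50.4% and 80% of them and Mfap4 in 56.9% and 74%. Whether these cells are leukocytes that lack such genes was not tested. Those cells had medians of 1945 and 2683 UMIs. Over all cells with Col1a1 the share with Coch was 4.15% in tube 1 and 10.8% in tube 2 at medians of 2727 and 4488.5 UMIs. That is close to the share in the cells with Ptprc. A single Coch UMI in a cell is therefore not read as expression.

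**Figure D1:**
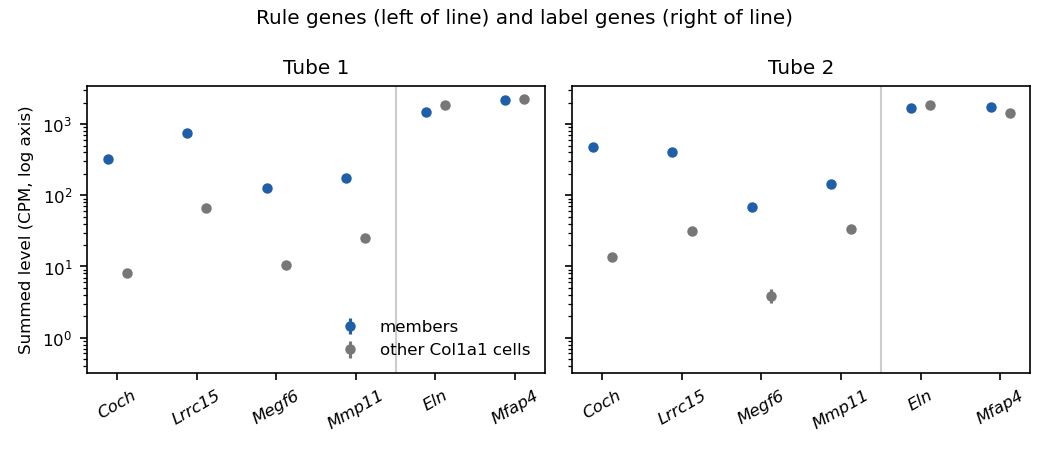
Summed level in CPM (log axis) of the 4 rule genes and the 2 label genes in members (blue) and other cells with Col1a1 (grey) in each tube, with 95% exact Poisson limits mostly smaller than the points. Rule genes are apart by construction, while Eln stands at 1497 against 1843 CPM in tube 1 and 1675 against 1870 in tube 2.

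Eln summed over all members was not higher than in other cells in either tube, which goes against the elastin part of the label. In tube 2 only the members with 6 or more UMIs of the rule genes lay below the other cells. Eln, which encodes tropoelastin, stood at 1497 CPM in members (1470 to 1524) and 1843 in other cells (1830 to 1855) in tube 1. It stood at 1675 CPM (1642 to 1710) and 1870 (1852 to 1889) in tube 2. The level in members was thus 0.812 and 0.896 times that in other cells. This ratio was below 1 in both tubes under all 16 alternative settings. Among them, those that change only which genes are described cannot move it. Mfap4, which encodes a microfibril-associated glycoprotein, gave ratios of 0.984 in tube 1 and 1.22 in tube 2. It was detected in 90.2% and 94.6% of members, and in 80.5% and 87.1% of other cells, which were shallower. The cells are therefore called here by the genes that chose them. Over all described genes, 1.63% were at least 2-fold higher in both tubes and 1.06% lower. Of 25 described genes of elastic fibres and microfibrils, 1 was at least 2-fold higher in both tubes and 0 were lower. That gene was Ltbp2, a microfibril protein of the latent TGF-beta binding family, at 46.95 against 19.5 CPM and 42.5 against 17.98. Fbn1, the main fibrillin, gave ratios of 0.981 and 0.990, and Fbn2, the fetal fibrillin, gave 1.88 and 1.83. Efemp1, which encodes fibulin-3, stood at 232 against 523 CPM and 222 against 401.

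Within the members, elastin depended on which gene led. A cell is called led by a gene if that gene had more UMIs in it than each of the other 3, a split that was also chosen on measured values. Lrrc15 led 1241 members (65.2%) in tube 1 and 299 (46.2%) in tube 2, and Coch led 279 (14.7%) and 158 (24.4%). Mmp11 led 174 and 118 members, Megf6 led 85 and 23, and 125 and 49 were tied. The few Megf6-led cells had the highest Eln levels, 3783 CPM (3561 to 4015) and 3604 (3337 to 3887), above the other cells of both tubes. Coch-led cells stood at 1983 and 1666 CPM, Lrrc15-led cells at 1306 and 1524, and Mmp11-led cells at 1077 and 1598. Lrrc15-led cells, the most numerous, thus stood below the other cells in both tubes, and Megf6-led cells above them.

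Eln and the leading genes also moved with the number of rule UMIs. Just outside the threshold, 1202 cells in tube 1 and 337 in tube 2 held 2 rule UMIs, and just inside, 606 and 191 held 3. The summed level of the 15 leading genes named below was 344 CPM at 2 UMIs and 542 at 3 in tube 1, and 326 and 381 in tube 2. It rose to 1337 and 1417 CPM in the 626 and 290 cells with 6 or more, from 102 and 118 in cells with 0. No gap separates members from other cells along this scale. Postn, which encodes the matricellular protein periostin, went from 1041 CPM at 0 rule UMIs to 3609 at 6 or more in tube 1, and from 633 to 2470 in tube 2. Eln went from 1799 CPM at 0 rule UMIs to 1067 at 6 or more in tube 1, and from 1903 to 1223 in tube 2. In tube 2 it did not fall steadily, with 2037, 2477 and 1912 CPM at 3, 4 and 5 UMIs. Those levels lay above the 1870 of the other cells of tube 2, and only the members with 6 or more lay below. Median UMIs per cell climbed along the same scale, from 2466 to 4141.5 and from 3785 to 8618.5, and their part in these values was not tested.

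**Figure D2:**
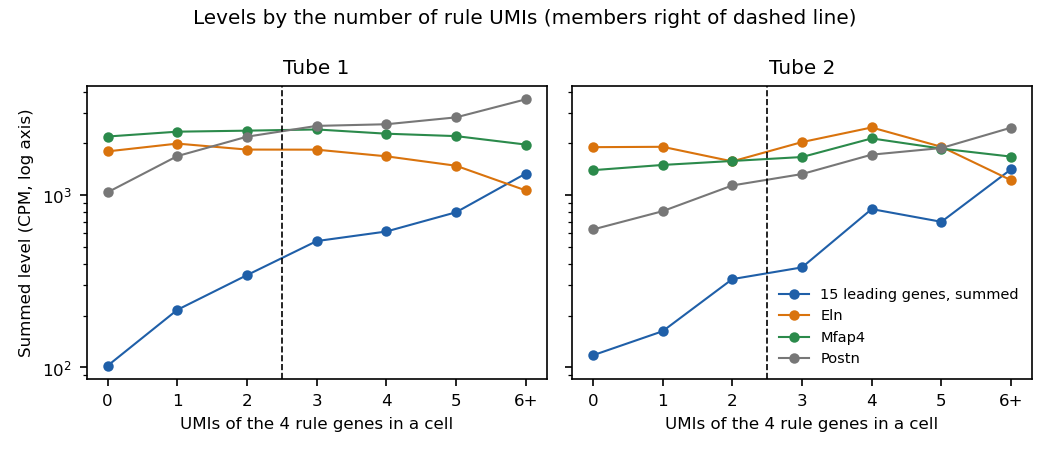
Summed level in CPM (log axis) of the 15 leading genes together, Eln, Mfap4 and Postn by the number of UMIs of the 4 rule genes in a cell, members lying right of the dashed line. The leading genes climb from 102 to 1337 CPM in tube 1 and from 118 to 1417 in tube 2 with no break at the threshold, and Eln is lowest at 6 or more in both tubes.

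Outside the rule genes, the genes furthest above the other cells were Tnn, Prss35, Acan, Col11a1 and Fmod, most of which encode matrix proteins. Of 11368 genes described in both tubes, 185 (1.63%) were at least 2-fold higher in members in both, and 121 (1.06%) were at least 2-fold lower. A gene was described if at least 10 UMIs were expected in the members at equal CPM. The 185 were 70.1% of the genes 2-fold higher in tube 1 and 50.4% of those in tube 2, and the 121 were 46.0% and 54.0% of the lower ones. The median log2 ratio over all described genes was 0.09 in tube 1 and 0.07 in tube 2. No test applies, since the same cells chose the members, and all of these values are a description.

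Tnn, which encodes tenascin-N, led the genes ranked by the smaller of their 2 ratios. It stood at 64.3 CPM in members against 5.04 in tube 1 (12.8-fold, 10.9 to 14.9) and at 46.3 against 3.80 in tube 2 (12.2-fold, 9.42 to 15.9). Prss35, a secreted protein related to serine proteases, stood at 82.8 against 3.36 CPM (24.7-fold) and 32.1 against 2.87 (11.2-fold). Tnn was found in 11.6% and 11.9% of members and Prss35 in 13.2% and 8.81%. At such low levels the cells without a UMI cannot be told from cells that express the gene. Genes known from cartilage and tendon followed. Acan, which encodes the cartilage proteoglycan aggrecan, was a rare transcript, at 8.75 against 0.798 CPM (10.97-fold) and 15.6 against 0.634 (24.6-fold). Col11a1, a minor fibrillar collagen of cartilage, stood at 85.5 against 6.34 CPM (13.5-fold) and 92.2 against 9.45 (9.75-fold). Fmod, which encodes the collagen-binding proteoglycan fibromodulin, stood at 24.2 against 3.13 CPM (7.72-fold) and 90.2 against 8.87 (10.2-fold). Tnmd, the tendon membrane protein tenomodulin, gave lower ratios, 4.31-fold and 4.78-fold. Col12a1, a collagen that bridges fibrils, was the most abundant of the 15 and was found in 47.5% and 49.6% of members, against 12.9% and 16.0% of other cells. Its level was 295 against 73.2 CPM (4.02-fold) and 408 against 63.8 (6.40-fold).

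The rest of the 15 were the gelatinase Mmp9, the metalloproteinase Adamts18, the kinesin Kif26b, the semaphorin Sema3g, the F-spondin gene Spon1, Brinp3, Ripor2 and the endothelin receptor gene Ednrb. Their ratios ran from 4.21 (Spon1) to 10.9 (Ednrb) in tube 1, and from 4.15 (Ednrb) to 7.02 (Kif26b) in tube 2. Mmp9 was carried by few cells, 3.57% and 6.18% of members, at 21.9 against 3.29 CPM and 36.6 against 5.60. The direction of Ednrb in tube 2 depended on which cells were compared. Its ratio there was 0.595 over cells assigned to 1 hashtag and 0.468 when other cells were weighted to the members' hashtags, both chosen after the data were seen.

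Among the gene lists, collagen-linked and matricellular genes included several of the higher genes. The lists were drawn up with earlier results of these data known, so their counts are set against the 1.63% of all genes that were 2-fold higher in both tubes. Of 28 small proteoglycans and matricellular genes 6 were higher (Tnn, Fmod, Spon1, Postn, Cthrc1 and Igfbp4) and 0 lower. Postn stood at 2947 against 1284 CPM and 2021 against 736. Cthrc1, a secreted protein of wound and tumour fibroblasts, stood at 301.5 against 122 and 219.7 against 60.4. Of 25 genes of fibrillar collagen and its processing 3 were higher, Col11a1, Col12a1 and the lysyl hydroxylase Plod2. The main collagens were not. Col1a1, which the rule required, stood at 16346 against 22064 CPM in tube 1 and 18783 against 24661 in tube 2, and Col3a1 gave ratios of 0.866 and 0.987. Decorin (Dcn), the main small proteoglycan of dermis, stood at 9934 against 16689 CPM and 11030.3 against 16508.

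Of 10 described tendon and cartilage genes, 6 were at least 2-fold higher in both tubes and 10 were above 1 in both, with median log2 ratios of 1.37 and 2.14. The 6 were Acan, Col11a1, Fmod, Tnmd, the matrilin Matn4 and Scx, a transcription factor of tendon. Scx itself was rare, at 3.45 against 1.28 CPM and 8.97 against 2.19. Chad and Col2a1, the defining collagen of cartilage, had 0 UMIs in members. Of 14 dermal sheath genes, which mark the contractile layer around the hair follicle, 5 were higher, Acan, Itga8, Col11a1, Tnmd and Tagln. The smooth muscle myosin Myh11 was lower, at 3.70 against 8.65 CPM and 2.51 against 29.7.

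**Figure D3:**
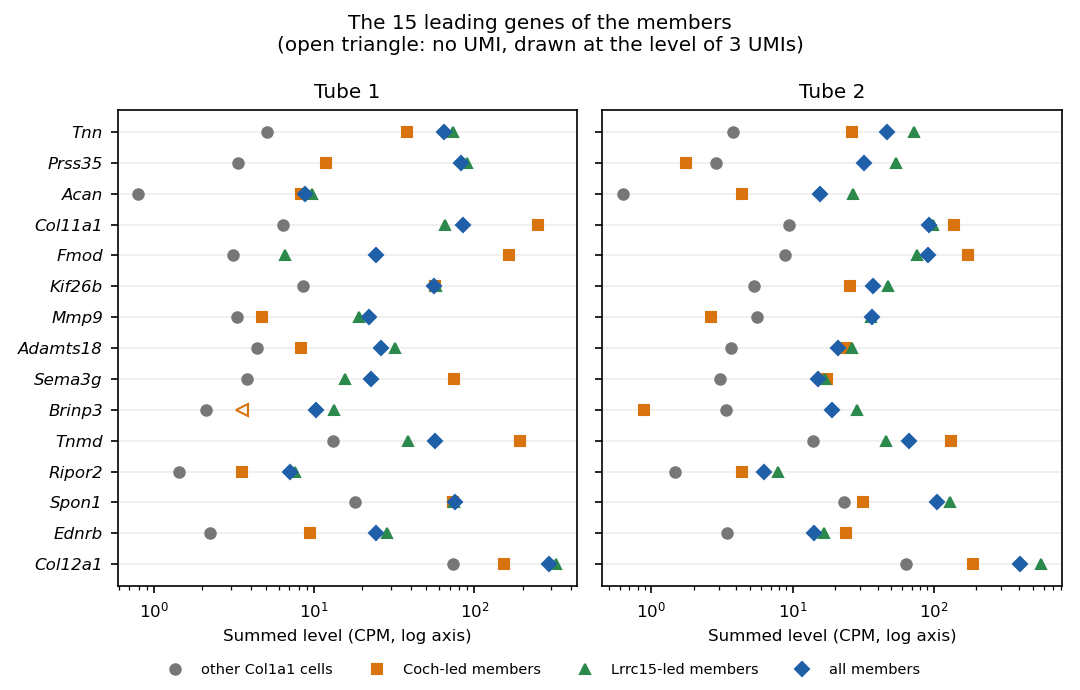
Summed level in CPM (log axis) of the 15 leading genes in other cells (grey), all members (blue), Coch-led members (orange) and Lrrc15-led members (green) in each tube. Members exceed other cells for all 15 in both tubes, and Fmod and Tnmd are higher in Coch-led cells while Prss35 and Mmp9 are higher in Lrrc15-led cells.

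Genes linked to TGF-beta and contraction were higher in part. Of 25, 4 were at least 2-fold higher in both tubes and 0 lower, and 19 were above 1 in both. Runx1 stood at 139.6 against 61.3 CPM and 150.3 against 54.9, and Runx2, the bone and cartilage factor of the same family, at 25.1 against 11.1 and 14.5 against 5.70. Tagln, which encodes the actin-binding protein transgelin, gave 4.53-fold and 2.02-fold. Acta2, the smooth muscle actin that marks myofibroblasts, gave 3.47-fold in tube 1 and 1.51-fold in tube 2, so it passed the fold in tube 1 only. The hedgehog list had 2 of 10 genes higher, the receptor and target Ptch1 (2.88-fold and 2.13-fold) and the target factor Gli1 (2.08-fold and 2.10-fold). The ligands Shh and Ihh had 0 UMIs in members. Of 19 BMP genes 3 were lower and 0 higher, the ligand genes Bmp7 and Gdf10 and the antagonist gene Chrdl1. Bmp4 gave 0.484 and 0.654.

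Cell cycle genes were higher as a group. All 25 were above 1 in both tubes and 9 passed 2-fold in both, with median log2 ratios of 0.94 and 1.41. Top2a, a topoisomerase of dividing cells, stood at 46.5 against 19.5 CPM and 34.3 against 6.48. Cells with 2 or more UMIs of Mki67, Top2a, Cdk1 and Birc5 were 6.78% of members against 2.18% of others in tube 1, and 6.18% against 1.30% in tube 2. At 2000 UMIs per cell the shares were 5.23% against 1.98% and 3.66% against 0.69%, with membership still taken at full depth, so that members remain cells that were deeper before thinning. By leader, the full-depth share was 8.30% of Lrrc15-led and 3.58% of Coch-led members in tube 1, and 9.03% and 2.53% in tube 2. The last is 4 cells. At 2000 UMIs per cell the shares by leader were 5.84% against 4.97% and 5.10% against 1.97%. These are shares of cells with such UMIs, and the part of free RNA in them was not tested.

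Among the 15 genes lowest in members were several known from adipocytes, keratinocytes and leukocytes, read against the 1.06% of all genes that were 2-fold lower in both tubes. Of 6 described adipocyte genes 5 were at least 2-fold lower in both tubes and 0 higher, among them Car3 (1.11 against 8.63 CPM and 1.61 against 26.7). Cfd, which encodes adipsin, stood at 4.07 against 31.7 CPM and 17.6 against 216. The share of cells with a Cfd UMI was not lower, however, at 1.73% of members against 1.44% of others and 12.7% against 11.1%. The lower level thus came with fewer UMIs per cell that held any. Members were the deeper cells, so the shares are not at equal depth and do not show that as many members express Cfd. Of 9 keratinocyte genes 5 were lower, with Perp, a desmosome gene, at 3 against 93 UMIs in tube 1 (ratio 0.189, 0.0384 to 0.571). Of 13 leukocyte genes 2 were lower, S100a8 and S100a9. The cytokine genes Il1b and Ccl4 were also among the 15 lowest. Tinagl1, a basement membrane protein of vessels, had 1 UMI in members of tube 1 (ratio 0.0743, 0.00186 to 0.426) and 0 in tube 2. The latter is at least 7.34-fold lower than in other cells at a floor of 3 counts.

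The summed levels of the marker lists of other cell types show the size of these signals. The 16 keratinocyte genes summed to 64.9 CPM in members against 97.5 in others in tube 1 and 61.3 against 121 in tube 2. The 9 adipocyte genes summed to 25.4 against 67.6 CPM and 66.7 against 219, and Plin1 and Lep had 0 UMIs in members. The 14 endothelial genes summed to 58.0 against 50.0 CPM and 46.6 against 46.0, with Emcn, Cldn5, Lyve1 and Ccl21a at 0. Pericyte and smooth muscle genes were split. Of 12 described, Rgs5, Kcnj8, Abcc9, Myh11 and Des were lower and Cspg4 and Tagln higher. Rgs5, the usual pericyte marker, stood at 4.44 against 17.0 CPM and 1.79 against 19.2. The part of such cells in the lower genes was not tested.

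Of the fibroblast subset lists, that of fascia and universal fibroblasts had 2 of 18 genes lower, Dpp4 and Opcml, and 0 higher. Dpp4, a surface peptidase of fascia fibroblasts, stood at 24.6 against 50.8 CPM and 20.4 against 49.8. Pi16, the main marker of universal fibroblasts, passed the fold in neither tube, at 452 against 565 CPM and 577 against 589. The list of reticular and hypodermal dermis had 3 of 17 lower, Cfd, Fabp4 and Apoe. The papillary list had 1 of 16 higher, Stmn4, and the dermal papilla list 1 of 14, Prdm1. The Wnt list had 0 of 31 on either side.

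UMIs of all 4 rule genes were seldom found in 1 cell, which at these depths does not show how many cells express them. Only 1 of the 4 was found in 43.0% of members in tube 1 and 34.8% in tube 2, and all 4 in 1.84% and 4.33%. Among cells with 2 or more Megf6 UMIs, 67.9% of 290 in tube 1 and 79.5% of 88 in tube 2 also held Lrrc15. In cells without Megf6 the shares were 20.5% and 19.8%. Most cells with Megf6 thus also held Lrrc15. With 2 or more Coch UMIs, 37.4% of 377 and 45.9% of 194 cells held Lrrc15, against 22.2% and 20.3% of cells without Coch. With 2 or more Lrrc15 UMIs, 6.82% of 2038 and 18.8% of 468 held Coch, against 3.47% and 8.74%. The cells with a gene were deeper than those without, with medians of 8542 against 4046 UMIs for Lrrc15 in tube 2, and the part of depth in each gap was not tested.

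Coch-led and Lrrc15-led members were compared over all tags pooled, so the comparison mixes samples. The 2 kinds were spread unequally over tags. In tube 2, tag 1 held 44 Coch-led and 45 Lrrc15-led cells and tag 3 held 0 and 39. The part of these samples in the values below was not tested. Of 7505 genes described in both tubes, 48 (0.64%) were at least 2-fold higher in Coch-led cells in both, and 71 (0.946%) were at least 2-fold lower. Coch-led cells were shallower, with medians of 2656 against 4461 UMIs in tube 1 and 5743 against 9168 in tube 2. The gene with the widest gap on the Coch side was Gldn, which encodes gliomedin, a matrix protein known from the nodes of nerves. It stood at 181 CPM in Coch-led and 7.11 in Lrrc15-led cells in tube 1 (25.5-fold), and at 113 and 11.8 in tube 2 (9.53-fold). Rspo1, an activator of Wnt signalling, stood at 87.6 against 18.8 CPM and 99.6 against 22.4. The homeobox gene Meox2 gave 11.2-fold and 4.02-fold, and the BMP ligand gene Bmp4 gave 3.08-fold and 3.85-fold. Id1, a gene known to respond to BMP, gave 2.94-fold and 3.02-fold. Cyp26b1, a retinoic acid hydroxylase, stood at 765 against 198 CPM and 737 against 260.4.

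Set against cells outside the members, Rspo1 and Bmp4 differed more in Lrrc15-led than in Coch-led cells. Other cells had Rspo1 at 58.8 and 65.0 CPM and Bmp4 at 55.5 and 61.4, close to the Coch-led levels of 61.6 and 78.4 for Bmp4. Gldn in other cells was 18.1 and 37.0 CPM, between both kinds of member. Tendon and cartilage genes were split by leader, read against the 0.64% and 0.946% of all genes. Of 7 described, 2 were at least 2-fold higher in Coch-led cells in both tubes, Tnmd and Fmod. Another 2, Thbs4 and Prg4, were at least 2-fold higher in Lrrc15-led cells. Tnmd stood at 193 against 38.6 CPM in tube 1 and 133 against 45.7 in tube 2, higher on the Coch side. Kera, a proteoglycan gene, was likewise higher there (2.92-fold and 5.50-fold). Fmod was 24.9-fold higher in Coch-led cells in tube 1 (165 against 6.60 CPM) and 2.31-fold in tube 2 (175 against 75.6). The universal marker Pi16 was also higher in Coch-led cells, at 1136 against 366 CPM and 1026 against 492. It was the 1 gene of 17 described on the fascia and universal list that was 2-fold higher there. On the same list 2, Plac8 and Nov, were at least 2-fold higher in Lrrc15-led cells. The list's median log2 ratios, Coch-led over Lrrc15-led, were -0.45 and -0.17. Cells with 3 or more UMIs of Pi16 and Dpp4 were 39.1% of Coch-led and 22.3% of Lrrc15-led members in tube 1, and 55.1% and 39.1% in tube 2. At 2000 UMIs per cell these shares were 28.2% against 9.76% and 27.6% against 14.3%.

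On the Lrrc15 side were Cthrc1, Sfrp2, Spp1 and Reg3g, each at least 2-fold higher there in both tubes. Cthrc1 stood at 359 CPM in Lrrc15-led and 56.9 in Coch-led cells in tube 1, and at 332 and 22.9 in tube 2, against 122 and 60.4 in other cells. Sfrp2, a Wnt-binding secreted protein, stood at 264 against 58.0 CPM and 212 against 35.3. Spp1, which encodes osteopontin, stood at 52.0 against 4.74 CPM and 289.9 against 59.9. The antimicrobial lectin gene Reg3g had 1 UMI in Coch-led cells of tube 1 (ratio 0.0706, 0.00177 to 0.403) and stood at 103 against 5.29 CPM in tube 2. Bnc2, a zinc finger factor, had 0 UMIs in Coch-led cells of tube 1, which is at least 8.39-fold lower than in Lrrc15-led cells at a floor of 3 counts. In tube 2 it had 2 UMIs there (ratio 0.0735, 0.00873 to 0.275). Col12a1, Prss35, Mmp9 and Brinp3 of the 15 leading genes were at least 2-fold higher on the Lrrc15 side in both tubes as well. Brinp3 had 0 UMIs in Coch-led cells of tube 1, at least 3.77-fold lower at the floor of 3 counts, and 1 UMI in tube 2 (ratio 0.0308, 0.000771 to 0.176). Col12a1 stood at 325 against 154 CPM and 575 against 189. Prss35 stood at 89.8 against 11.8 CPM and 54.2 against 1.76, the latter from 2 UMIs (ratio of Coch-led to Lrrc15-led 0.0325, 0.0039 to 0.119). Tnn did not pass the fold in tube 1, at 73.3 against 37.9 CPM and 72.0 against 26.4, above the other cells in both kinds of member.

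The share of members differed between hashtags. Counts of 6 hashtags were used to assign 5742 cells (31.6%) in tube 1 and 1224 (25.9%) in tube 2 to a single tag, and 896 and 300 more carried more than 1. Since no hashtag is tied to a condition, these are values of unlabelled samples and no test was made. In tube 1 the shares for tags 1 to 6 were 24.2%, 10.2%, 13.4%, 13.9%, 5.73% and 7.56%, and in tube 2 they were 44.5%, 16.3%, 23.0%, 16.3%, 8.59% and 10.6%. Tag 1 had the highest share and tag 5 the lowest in both tubes. At 2000 UMIs per cell tag 1 gave 11.8% and 24.8%, and the other tags 2.82% to 6.47% and 2.42% to 6%. Coch-led cells made up 3.56% of tag 1 cells in tube 1 and 17.2% in tube 2. The summed level of the 15 leading genes was higher in members than in other cells within all 6 tags of both tubes, by 3.37-fold to 10.8-fold in tube 1 and 2.38-fold to 10.2-fold in tube 2. Those genes were picked for their ratios in the same cells, so this describes the range and supports nothing. Eln was lower in members within 5 of 6 tags in tube 1, the exception being tag 6 (1.17), and within 3 of 6 in tube 2. Among the cells not assigned to a single tag, which were most of the cells, the ratio was 0.842 in tube 1 and 1.02 in tube 2, so in tube 2 the lower level of Eln was not seen there. In tube 2 the Eln ratio ran from 0.43 in tag 3 to 1.29 in tag 4.

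**Figure D4:**
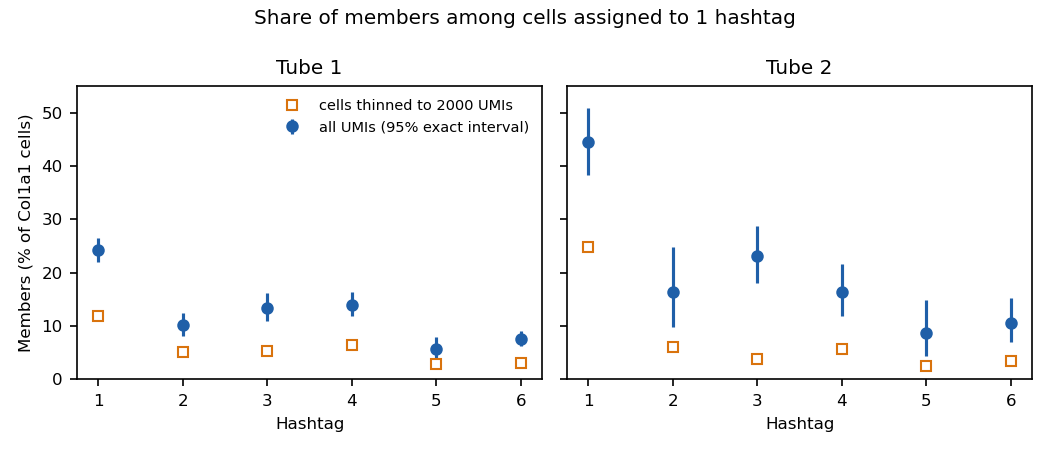
Members as a percentage of cells with Col1a1 and without Ptprc among cells assigned to 1 hashtag, with 95% exact binomial intervals (blue), and after thinning each cell to 2000 UMIs (orange squares). Tag 1 stands highest in both tubes, at 24.2% and 44.5%, and stays highest after thinning at 11.8% and 24.8%.

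The sorted bulk libraries, which the choice of cells did not use, allow tests of the genes between lineages and ages. They held 4264657 to 17190154 counts in genes. Libraries rich in globin stood apart, PNF E18.5 A with 43.1% of counts in globin genes and PNF P30 A with 46.6%, and the latter had 6508 genes detected against up to 19421 elsewhere. In bulk, fewer cells of a type and less RNA per cell cannot be told apart. P-values here measure the spread between these libraries, which may be technical. Of the 21 rule, label and leading genes, 17 could be tested and Mfap4, Adamts18, Brinp3 and Ripor2 were too low. Mfap4 stood at 0 to 2.04 CPM in bulk, against 1447 to 2241 in the single cells. The bulk counts were made per transcript and summed here, so levels are compared between libraries and not between genes.

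Coch was scarce at all ages before P30. At E16.5 the PNF libraries had 0.329 and 0.271 CPM and the PPF libraries 0 and 0.739. At E18.5 they had 0 to 1.36 (PNF) and 0 and 1.498 (PPF), and at P1 0 to 2.08 (PNF) and 0.507 and 2.02 (PPF). At P30 it was 0 in PNF A and 15.7 in PNF B, and from 0.996 to 16.1 in PPF with a median of 7.96. At P30, PNF A and the lowest PPF library overlapped the younger libraries, and the others lay above them. At E16.5 Lrrc15 stood at 6.24 and 10.2 CPM in the PNF and 30.2 and 12.7 in the PPF libraries, and at 0.443 to 111 in PNF and 14.1 to 137.5 in PPF at E18.5 and P1 together. At P30 it stood at 0 in PNF A and 726 in PNF B, and at 31.2 to 551 in PPF with a median of 92.3. Mmp11 stood at 12.4 to 65.2 CPM in all libraries before P30. At P30 it stood at 29.98 in PNF A and 991 in PNF B, and at 22.4 to 1070 in PPF with a median of 38.5. Its P30 libraries overlapped the younger ones except for the B library of each lineage. Tnn showed the same, with 292 CPM in PNF P30 B, 353 in PPF P30 B and 0 to 14.7 in the other P30 libraries.

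Megf6 was highest in PPF at E18.5. It stood at 101 and 164 CPM in PPF at E18.5 and 5.98 to 49.6 in PNF, and at 6.645 to 38.8 in PPF at P30. Eln stood at 404 and 474.5 CPM in PPF at E16.5, 1405 and 1453 at E18.5, 1216 and 1824 at P1, and 431 to 5502 with a median of 1363 at P30. In PNF it stood at 302 and 459.7 CPM at E16.5, 471 to 1389 at E18.5, 467 to 2426 with a median of 1937 at P1, and 255 and 524 at P30. The lineages overlapped at E16.5 and P1, where 2 of the 4 PNF libraries exceeded both PPF libraries. At E18.5 the PNF libraries lay below both PPF libraries, and at P30 below 5 of the 6. Single genes were tested with edgeR's quasi-likelihood test, adjusted over 15559 genes by Benjamini-Hochberg.

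**Figure D5:**
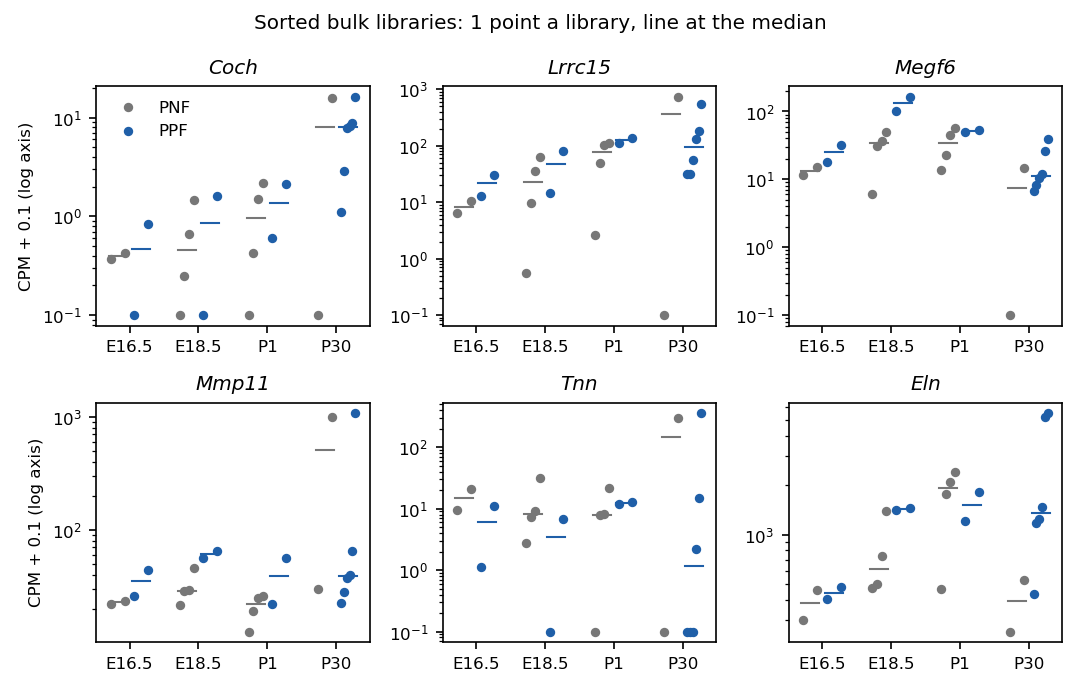
Level of Coch, Lrrc15, Megf6, Mmp11, Tnn and Eln in each of 24 sorted bulk libraries, as CPM + 0.1 on a log axis, PNF in grey and PPF in blue, with a line at each group's median. Single P30 libraries of each lineage, both lettered B, stand at 726 and 551 CPM for Lrrc15 and at 991 and 1070 for Mmp11.

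Between lineages, averaged over ages, 13 of all genes (0.0836%) were called higher in PPF and 92 (0.591%) lower. By edgeR 0 of the 17 genes were among them, while 2164 of all genes had an unadjusted p under 0.05. DESeq2, which called 844 genes in all, called 3 of the 17 lower in PPF, Sema3g (-3.76, adjusted p = 0.000145), Ednrb (-2.39, adjusted p = 0.00171) and Fmod (-2.65, adjusted p = 0.00821). Coch gave a log2 difference, PPF minus PNF, of 0.28 (SE 0.90, edgeR adjusted p = 1), Lrrc15 0.48 (SE 0.84, 0.931), Megf6 1.19 (SE 0.54, 0.325), Mmp11 0.31 (SE 0.65, 0.964) and Eln 0.91 (SE 0.39, 0.287). The standard errors are wide, and a difference of several fold either way was not detectable for Coch and Lrrc15. Without PNF P30 B, Megf6 gave 3.38 and Lrrc15 4.07 in edgeR. PNF P30 A, at 0 counts of both genes, is then the only PNF P30 library, so these values give no size of a difference. Sema3g gave -3.86 (SE 0.92, edgeR adjusted p = 0.0569). In edgeR it passed without the filter on low counts (adjusted p = 0.0104), without PNF P30 A (0.0118), without PPF P30 A (0.0337) and without both globin-rich libraries (0.0125), and it moved to -1.35 (adjusted p = 1) without PNF P30 B. Fmod gave -2.68 (SE 0.84, edgeR adjusted p = 0.127) and passed without the filter (-2.72, adjusted p = 0.0282). Of the 12 tested leading genes 3 had a positive and 9 a negative value, with a median of -1.33 against -0.14 over all genes. Of the 15 genes lowest in the members 14 were tested and 1 was called, Perp, at -5.75 (SE 1.06, edgeR adjusted p = 0.0143). Its call was lost without each of 5 libraries in turn and with the replicate letter as a block (-5.90, adjusted p = 0.0632). Perp is itself a keratinocyte marker, and 9 of 16 keratinocyte and 6 of 10 tested leukocyte genes were called lower in PPF in the same comparison. At E16.5 the 16 keratinocyte genes summed to 4360 to 5590 CPM in the PNF and 78.7 to 204 in the PPF libraries, and to 264 to 13300 in PNF and 10.0 to 32.8 in PPF at E18.5. At P1 the order turned, with 412 to 5780 in PNF and 8260 to 9360 in PPF, and at P30 it was 6660 to 10200 and 168 to 2340. Their part in the lineage values was not tested.

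At P30 the lineage comparison rests on 2 PNF libraries, 1 of them globin-rich. There 1 gene (0.00643%) was called higher in PPF and 18 (0.116%) lower, and 0 of the 17. By DESeq2 230 genes were called over all, and 1516 had an unadjusted p under 0.05 in edgeR. Eln gave 2.68 (SE 0.86, edgeR adjusted p = 0.242), and 2.62 by DESeq2 (adjusted p = 0.0263). Without PNF P30 A its value in edgeR was 2.21 (adjusted p = 1). Lrrc15 gave -1.15 (SE 1.44, edgeR adjusted p = 0.863), which turned to 13.33 (adjusted p = 0.0397) without PNF P30 B, the library that holds all Lrrc15 counts of its group. Megf6, also at 0 in PNF P30 A, moved from 1.18 to 10.07 (adjusted p = 0.00696) and Sema3g, likewise at 0 there, from 1.64 to 11.62 (adjusted p = 0.0187) in edgeR without that library. These 3 fitted values set PPF against 1 library at 0, depend on the prior count and give no size of a difference.

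From E16.5 to P30, averaged over lineages, 65 genes (0.418%) were called higher and 52 (0.334%) lower, and 2465 had an unadjusted p under 0.05. Spon1, which encodes a secreted cell adhesion protein, was the 1 called gene of the 17. At E16.5 it had 72.4 and 87.2 CPM in the PNF and 22.8 and 69.4 in the PPF libraries, and at 288 and 1050 in PNF and 168 to 1391 in PPF at P30, with no overlap. The log2 difference, P30 minus E16.5, was 3.57 (SE 0.70, edgeR adjusted p = 0.0227). The call was lost without each of the 4 E16.5 libraries in turn, with adjusted p from 0.0841 to 0.213, and in the fit with the replicate letter as a block (3.14, adjusted p = 0.0745). Coch gave 4.45 (SE 1.57, edgeR adjusted p = 0.163), Lrrc15 4.20 (SE 1.47, 0.16), Mmp11 3.54 (SE 1.10, 0.115), Megf6 -0.70 (SE 0.78, 0.728) and Eln 1.27 (SE 0.59, 0.298). With DESeq2 Coch (4.87, adjusted p = 0.00418) and Lrrc15 (4.51, adjusted p = 0.00315) passed. Without PNF P30 B they gave -0.03 and -3.02 in edgeR, so their direction turned on that library. Without it Megf6 gave -5.11 and Mmp11 1.48 in edgeR. These fits keep PNF P30 A as the only PNF P30 library, at 0 counts of Coch, Lrrc15 and Megf6. The values of those genes without PNF P30 B give no size of a difference. Without both globin-rich libraries Mmp11 (4.03, edgeR adjusted p = 0.0464) and Lrrc15 (4.70, adjusted p = 0.0233) passed. The 16 keratinocyte genes all had positive values with age, 0 of them called, and their part was not tested.

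The genes that tell Coch-led from Lrrc15-led members had mostly opposite signs with age. Of the 15 Coch-side genes 14 were tested, 13 had a positive and 1 a negative value from E16.5 to P30, and the median was 1.42. Of the 15 Lrrc15-side genes 12 were tested, 2 had a positive and 10 a negative value, and the median was -1.65. Over all genes the median was -0.02. These are counts of signs without a test, and 1 gene was called, Rspo1, on the Coch side. At E16.5 Rspo1 had 27.5 and 32.3 CPM in the PNF and 45.1 and 59.7 in the PPF libraries, and at 98.1 and 214.5 in PNF and 223 to 568 in PPF at P30 with a median of 519.9, with no overlap. The log2 difference, P30 minus E16.5, was 2.73 (SE 0.58, edgeR adjusted p = 0.0292). The call was lost without each of the 4 E16.5 libraries in turn, with adjusted p from 0.129 to 0.222, and with the replicate letter as a block (2.55, adjusted p = 0.133).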

How the data were processed

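Members and gene lists were chosen with earlier results of these data known, and several of the list genes named were chosen after their values were seen. Single-cell UMI counts were deposited per barcode, with hashtag counts. The submitters' processing notes name Seurat 3.1.1 and 3.2 and mm10. Bulk counts were deposited per transcript by the authors, per the labels' protocols and file headers. They were summed here to 34030 genes through GENCODE vM21, and 3.33 to 7.1% of counts had no matched gene. The sources do not say how reads shared by transcripts were counted.

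Single-cell UMIs were summed per tube and set, given as CPM, and described without a test (Python 3.11.15, numpy 2.4.6, scipy 1.17.1, scanpy 1.11.5). Named genes were the 15 with the largest smaller change over both tubes, in each direction, with at least 20 UMIs, and likewise between Coch-led and Lrrc15-led members. A cell was assigned to a hashtag whose count was at least 4 times that tag's median and, so scaled, at least 2 times the next tag. Bulk counts were tested with edgeR 4.0.16 (quasi-likelihood, 8 groups, 24 libraries, adjusted p under 0.05) in R 4.3.3, and with DESeq2 1.42.0 as an alternative. Scripts were tested on simulated data. Letters were not used in the main fit, since the labels do not say that they mark shared animals or batches. Of 8 same-letter correlations between lineages, taken on deviations from group means, 0 exceeded 0.1 (-0.03 to 0.08). Where both groups hold 2 libraries, the A and B values are equal by construction. With so few libraries this check cannot tell whether letters mark shared animals or batches.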

Additional observations from a re-analysis of the deposited data

Results flagged for a closer look

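Pairs of a gene and a bulk group of 4 to 10 libraries were checked for a single library far from the others. Of 51 such pairs 10 had one, over 7 genes. The check assumes normally distributed values, while CPM is skewed and holds zeros. Since the pairs also share libraries, no rate expected by chance is given. PPF P30 B stood far above the other PPF P30 libraries for Lrrc15 (550.9 CPM, next 183.2), Mmp11 (1070, next 64.91), Tnn (353.2, next 14.69) and Mmp9 (18.13, the others at 0). PPF P30 A stood apart for Fmod (2012 CPM, next 567.9). PPF P30 F (0.6595 CPM) and PNF P1 D (0.6081 CPM) held the only Col11a1 counts of their groups. PNF E18.5 B stood apart for Acan (1310 CPM, next 127) and Fmod (5049, next 242.7). PNF E18.5 A, 1 of the 2 globin-rich libraries, stood apart for Mmp9 (238.9 CPM, next 4.195).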

How the results depend on the processing

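Of 1088 single-cell ratios past 2-fold, 1085 kept their side of 1 under the alternatives and 1058 stayed past 2-fold. They are ratios of the 4 rule genes and of the 15 higher and 15 lower genes picked for their ratios in the same cells. The settings on the minimum expected count change only which genes are described, so no ratio could move under them. These counts thus describe the range and support nothing. The 3 that turned were Brinp3 in tube 1 without Lrrc15 in the rule (0.948) and Ednrb in tube 2 with others weighted to the members' hashtags (0.468) or over cells assigned to 1 hashtag (0.595), both chosen after the data were seen. The 185 higher and 121 lower genes became 98 and 67 at no more than 5% mitochondrial UMIs, 66 and 49 without Lrrc15 in the rule, 40 and 42 at 2000 UMIs per cell, 625 and 1467 without a minimum expected count, 64 and 48 at a minimum of 50, and 75 and 65 with hashtag weights. Over cells assigned to 1 hashtag, 99 were higher. Fewer genes could be described under some settings. Of the 185 higher genes, 26 were still described at 2000 UMIs and 21 of them kept the fold, against 39 of 102 without Lrrc15 in the rule, 69 of 86 at 5% mitochondrial UMIs, 66 of 159 with hashtag weights and 85 of 135 over assigned cells. Removing doublets by Scrublet was not run, since it marked almost no cell.

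In bulk, called genes numbered 105 between lineages over ages, 19 between lineages at P30 and 117 between ages. RLE scaling gave 9 at P30. No filter gave 426, 144 and 210, and DESeq2 844, 230 and 1301. Without the globin-rich libraries, chosen after the data were seen, there were 320, 6 and 545, and Coch over ages was -0.08, Prss35 at P30 0.044 and Mmp9 at P30 1.45. With the replicate letter as a block the counts were 28, 0 and 20, and Perp, Spon1 and Rspo1 lost their calls. Leaving out 1 library gave 2 to 1480, 3 to 2687 and 0 to 1702, the highest all without PNF P30 B.

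Values that turned with 1 library left out ranged, over ages, from -0.33 to 1.31 for Mmp11, -1.18 to 2.496 for Coch and -0.015 to 4.07 for Lrrc15. At P30 they ranged from -3.76 to 2.86 for Mmp11, -1.13 to 8.89 for Coch, -2.20 to 13.33 for Lrrc15, -5.44 to 11.92 for Tnn, -1.37 to 0.014 for Prss35, -11.78 to 1.41 for Mmp9 and -1.99 to 0.28 for Ednrb. Between ages they ranged from -0.031 to 6.87 for Coch and -3.02 to 4.71 for Lrrc15. At P30 the highest values of Coch, Lrrc15 and Tnn came without PNF P30 B, with PNF P30 A at 0 for these genes. Those values give no size of a difference. The cause of the turns was not tested.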
